A study of Mus musculus with 15 samples.

Results

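The kinesin family was taken as every protein-coding gene whose symbol is Kif followed by a number, or Kifc followed by a number, once the Ensembl identifiers of the count tables had been matched to mouse gene symbols. The rule gave 42 of the 53700 genes in the tables, on 16 chromosomes. It left out Kif16bos, an antisense RNA gene, and kinesin motors with other symbols, such as Cenpe and Stard9. It kept Kif1bp, which encodes a kinesin binding protein and not a motor. The transcripts were measured in germinal vesicle (GV) oocytes, the fully grown mouse oocytes that are still held in meiotic prophase, by sequencing polyadenylated RNA from 15 oocytes per library. There were 4 groups: oocytes from Padi6 heterozygotes (3 biological replicates) and Padi6 knockouts (3) on the FVB/N strain, and from Tle6 heterozygotes (2) and Tle6 knockouts (4) on C57BL/6J. The controls of both lines therefore carried 1 disrupted allele. The sample names abbreviate them as wild type, the stated genotypes are heterozygous, and no wild-type group was analysed here. How the alleles were made, whether a promoter or Cre limits them, and the ages of the females are not given in the labels. Neither is it said how many animals gave the oocytes of a replicate, so p-values measure only the spread between these samples.

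Kinesins are motor proteins that hydrolyse ATP to walk along microtubules or to take their ends apart. Some carry organelles, vesicles and mRNA through the cytoplasm, and others slide, bundle and shorten the microtubules of the spindle. A mouse oocyte builds its meiotic spindle without centrioles, and until the embryonic genome is switched on it depends on transcripts and proteins stored during growth, which is why a GV oocyte holds mRNA for motors that it will use only after meiosis resumes. PADI6 and TLE6 are maternal proteins needed for the cytoplasmic lattices of the oocyte, the fibres that the study's title names as a protein store.

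A kinesin motor holds its nucleotide in a short loop in which a glycine is followed by 4 free residues and then by glycine, lysine and serine or threonine. This loop is shown as 1 of the features that the motors of this family share. Searched as amino acids in the longest open reading frame of each gene's GENCODE M21 transcripts (build GRCm38), it was found in 41 of the 42 members. The exception was Kif1bp. Over all protein-coding genes it was found in 938 of 21901, or 4.28%, so the pattern is not unique to kinesins. The 24 coding bases are printed for Kif11, a spindle motor, for Kif5c, a cargo motor, for the 3 members that changed in a knockout, and for Kif26b, the closest relative of one of them. Capitals mark the codons of the first glycine and of the closing glycine, lysine and serine or threonine.
Kif11, chromosome 19, codons 104 to 111: GGTcagactggcactGGAAAAACT
Kif5c, chromosome 2, codons 86 to 93: GGGcagacttcatcaGGAAAAACT
Kif18b, chromosome 11, codons 111 to 118: GGCgccaccggggctGGGAAGACA
Kif21a, chromosome 15, codons 88 to 95: GGAcaaaccggagctGGGAAAACC
Kif26a, chromosome 12, codons 462 to 469: GGCcacatgagcctcGGCAAATCA
Kif26b, chromosome 1, codons 546 to 553: GGCcatgccaagctaGGGAAATCC
Kif26a and Kif26b have the loop far from the start of the frame and close it with a serine codon, while the other 4 shown close it with a threonine codon. Of the 41 members, 29 have it within the first 130 codons and 12 further on.

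Each of the 15 libraries held between 30100177 and 74947533 counts on genes, of which 107624 to 252557 fell on kinesins. Replicates 1 and 2 of the Tle6 heterozygotes and replicate 4 of the Tle6 knockouts were each sequenced as technical libraries A and B, and these were added together. Padi6 itself was at 1594 to 1746 CPM (counts in a library scaled to 1000000, with TMM factors) in its heterozygotes and 18.8 to 24.8 in its knockouts, and Tle6 was at 429 and 457 CPM in its heterozygotes against 61.1 to 97.1 in its knockouts. The 9 oocyte markers summed to between 14315 and 18215 CPM in every replicate, and 15 granulosa and cumulus cell markers summed to at most 132 CPM. Of these 15, between 8 and 10 had a mean under 1 CPM in each group, among them Foxl2, Amh and Fshr, while most of the sum came from Nr5a2 (38.0 to 69.5 CPM) and Cyp19a1 (19.9 to 62.3), with Cyp11a1 at up to 22.5 and Has2 at up to 11.4. Libraries A and B of Tle6 heterozygote replicate 2 went against their label as technical repeats. Library A had 22333 CPM of oocyte markers and 159 of granulosa and cumulus markers, against 12298 and 118 for library B. Of the 28 kinesins with a mean of at least 5 CPM, 18 differed between them by over 1.5 times, against 0 for the other 2 such pairs. Each kinesin called in a comparison that uses this replicate is therefore also given without library A and without library B.

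**Figure D1:**
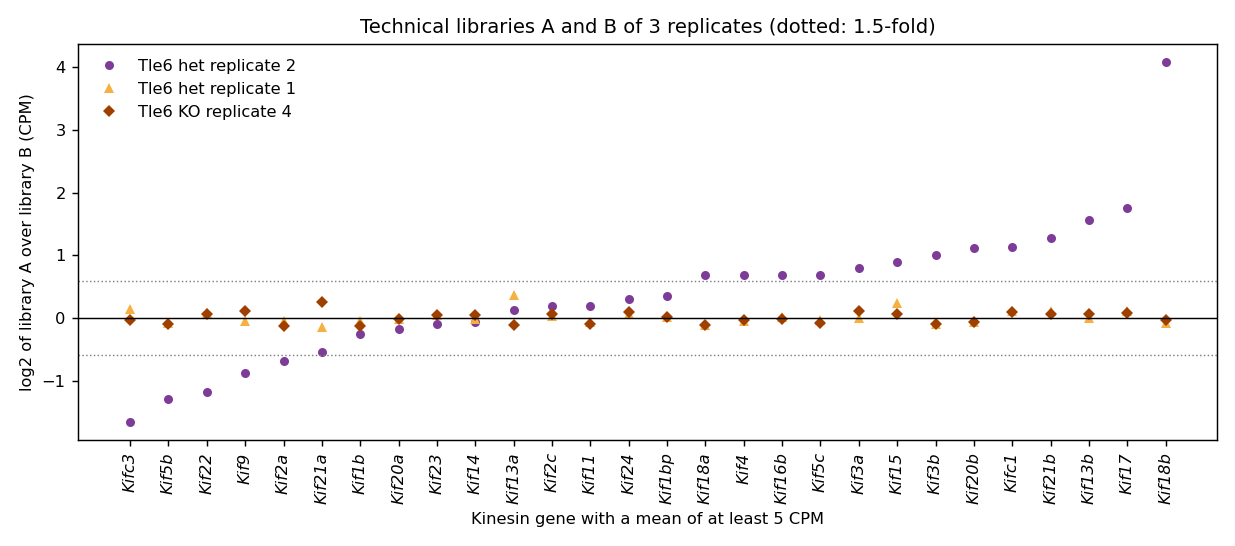
Log2 ratio of CPM in technical library A to that in library B (y axis) for the 28 kinesins with a mean of at least 5 CPM (x axis, ordered by the ratio in Tle6 heterozygote replicate 2), for the 3 replicates that have 2 libraries. Points of Tle6 heterozygote replicate 1 and Tle6 knockout replicate 4 lie near 0, while 18 points of Tle6 heterozygote replicate 2 lie outside the dotted lines at 1.5-fold, with Kif18b farthest out.

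Kinesin transcripts together made up between 3255 and 3866 CPM in every replicate. Their summed level was 3536 ± 90.9 CPM (SD, n = 3) in the Padi6 heterozygotes, 3507 ± 162 (n = 3) in the Padi6 knockouts, 3832 ± 48.3 (n = 2) in the Tle6 heterozygotes and 3482 ± 241 (n = 4) in the Tle6 knockouts. To compare genes with each other, levels were divided by the length of their exons. On that scale 11 members had at least 10 CPM per kb as a mean over the 4 groups, 16 had 1 to 10 and 15 had under 1. The 5 highest, Kif22, Kif23, Kif17, Kif2c and Kif4, held between 67.0% and 73.3% of the family's summed level per kb in each group. Of these 5, 4 act on chromosomes, at the spindle or in cytokinesis, and Kif17 is a kinesin-2 motor known from dendrites and cilia.

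**Figure D2:**
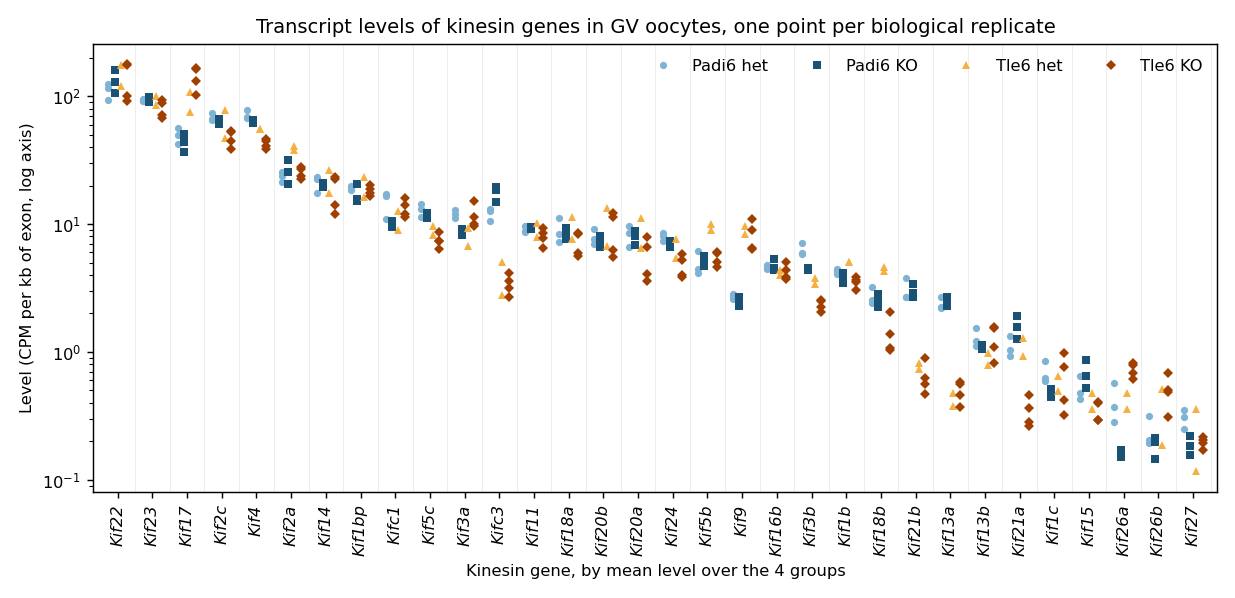
Level of each kinesin with a mean of at least 0.2 CPM per kb of exon (y axis, logarithmic) in each biological replicate, with genes ordered by their mean over the 4 groups (x axis) and groups told apart by colour and symbol. Kif22 is highest at 132 CPM per kb, and Kif13a, Kif21b, Kif9 and Kifc3 show the Padi6 line and the Tle6 line apart.

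The highest member was Kif22, a chromokinesin that binds DNA and pushes chromosome arms away from the spindle poles, at 132 CPM per kb. Its level per replicate was 459, 567 and 613 CPM in the Padi6 heterozygotes, 515, 629 and 789.9 in the Padi6 knockouts, 859 and 592 in the Tle6 heterozygotes and 854, 491, 447 and 870.0 in the Tle6 knockouts. The groups overlapped, and the knockout effect was 0.24 ± 0.16 (log2 ± SE) for Padi6 and -0.08 ± 0.32 for Tle6. Kif4, the other chromokinesin, which also organises the spindle midzone, was at 427, 375 and 378 CPM in the Padi6 heterozygotes, 362, 347 and 338 in the Padi6 knockouts, 303 and 306 in the Tle6 heterozygotes and 214, 256, 246 and 223 in the Tle6 knockouts. In both lines every knockout replicate of Kif4 lay below every heterozygote replicate, but library B of Tle6 heterozygote replicate 2, at 252.5 CPM against 406 in library A, lay below 1 Tle6 knockout. The differences were small and did not pass the test, at -0.18 ± 0.09 (adjusted p = 0.338) and -0.33 ± 0.17 (adjusted p = 0.316). The exons of Kif4 overlap those of Pdzd11 on the opposite strand over 15.1% of their length. No source used here says whether the counting used strand, so how reads in such overlaps were counted is not known.

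Kif2a and Kif2c encode motors that do not walk but take microtubule ends apart, Kif2c at centromeres and Kif2a mainly at spindle poles. Kif2c was at 284, 287 and 324 CPM in the Padi6 heterozygotes, 268, 265 and 291 in the Padi6 knockouts, 340.3 and 206 in the Tle6 heterozygotes and 228, 195, 167 and 233 in the Tle6 knockouts. Kif2a was at 136, 164 and 152 CPM in the Padi6 heterozygotes, 131, 163 and 202 in the Padi6 knockouts, 242 and 259 in the Tle6 heterozygotes and 179.5, 145, 172 and 151 in the Tle6 knockouts. The Tle6 heterozygotes stood above the other 3 groups for Kif2a. Their excess over the Tle6 knockouts did not pass the test over all genes, at -0.59 ± 0.17 for the knockout (adjusted p = 0.121). For heterozygote replicate 2 library A gave 185.5 CPM and library B 298.9, and the change was -0.82 without library A and -0.29 without library B. The third gene of this kind, Kif2b, had 0 counts in all 15 libraries, which allows up to 0.00376 CPM over the libraries together, for counting error only. Exons of Kif2a share 19.2% of their length with Dimt1 on the opposite strand.

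Kif11, the motor that pushes spindle poles apart, was at 71.7, 65.5 and 64.3 CPM in the Padi6 heterozygotes, 71.2, 69.2 and 68.2 in the Padi6 knockouts, 59.1 and 76.2 in the Tle6 heterozygotes and 57.9, 64.1, 70.0 and 48.3 in the Tle6 knockouts. The groups overlapped throughout. Kif15, which can take over part of the work of Kif11, was low at 5.28, 7.17 and 4.76 CPM, then 7.14, 5.75 and 9.55, then 5.28 and 3.95, then 3.25, 4.38, 3.21 and 4.45, in the same order of groups. Per kb of exon its mean over the groups was 0.491 CPM against 8.86 for Kif11.

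Kif18a and Kif18b are plus-end motors that limit microtubule growth, the first on the microtubules that hold chromosomes and the second on those that reach the cortex. Kif18a was at 109.7, 71.4 and 82.1 CPM in the Padi6 heterozygotes, 91.5, 85.8 and 75.5 in the Padi6 knockouts, 75.3 and 112 in the Tle6 heterozygotes and 58.4, 83.8, 82.6 and 55.5 in the Tle6 knockouts, with all groups overlapping. Kif18b, the lower of the pair, is described with the Tle6 knockout. Kifc1, a minus-end motor that focuses spindle poles, was at 37.7, 56.7 and 58.7 CPM in the Padi6 heterozygotes, 36.3, 35.8 and 32.3 in the Padi6 knockouts, 43.3 and 30.7 in the Tle6 heterozygotes and 47.8, 41.2, 38.8 and 54.6 in the Tle6 knockouts. The Padi6 knockouts lay below all 3 of their heterozygotes for Kifc1, and the difference of -0.56 ± 0.16 had an adjusted p of 0.108. Kifc1 has a near-identical neighbour, Kifc5b, so its counts are uncertain.

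Of the 4 cytokinesis motors 0 were called in either knockout by edgeR's quasi-likelihood test, beside 2.41% of all genes with Padi6 and 1.62% with Tle6. An unadjusted p under 0.05 was reached by 0, beside 18.6% and 19% of all genes, and DESeq2 called 0. With only 4 genes such counts are near these shares and say little about the group. Kif23, the motor subunit of centralspindlin, was at 727, 718 and 754 CPM in the Padi6 heterozygotes, 714, 761 and 772 in the Padi6 knockouts, 671 and 792 in the Tle6 heterozygotes and 731, 538, 562 and 697 in the Tle6 knockouts. Kif14, which acts late in cytokinesis, was at 179.9, 234 and 242 CPM, then 201, 206 and 218, then 277 and 182, then 242, 145, 125 and 234, in the same order. Kif20a, which brings the Aurora B kinase to the midzone, was at 42.2, 28.6 and 36.9 CPM, then 38.5, 29.6 and 34.7, then 48.1 and 28.0, then 29.0, 15.4, 17.8 and 34.2. For these 3 genes the Tle6 knockouts spread widely, with replicates 1 and 4 above replicates 2 and 3, and each group overlapped the heterozygotes of its line. Kif22 split in the same way. Tle6 heterozygote replicate 1 lay above replicate 2 for Kif14, Kif20a and Kif22 and below it for Kif23. The cause of this split was not tested. The exons of Kif20a overlap those of Cdc23 on the opposite strand over 29.3% of their length. Kif1bp, whose product binds motors and keeps them off microtubules, was at 97.3, 90.9 and 93.2 CPM, then 100.3, 74.3 and 76.3, then 80.3 and 113, then 81.6, 99.3, 91.9 and 85.3, again with overlap in both lines.

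At the other end, 14 members had counts but lay under 1 CPM per kb. Among them Kif1a and Kif5a, both best known as neuronal transport motors, had group means of at most 0.224 and 0.0601 CPM. Kif7, a regulator of Hedgehog signalling at the tip of the cilium, had at most 0.0977 CPM, and Kif12 had 4 counts in all libraries together. Because of such low counts 35 of the 42 members entered the test of the Padi6 line, 34 that of the Tle6 line and 37 in the fit of all 4 groups. Kif12, Kif2b, Kif5a, Kif7 and Kifc2 entered none of them. In libraries from pooled oocytes, less RNA per oocyte and fewer oocytes that hold the RNA cannot be told apart.

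Loss of Padi6 changed 1 kinesin past the test: Kif26a fell. By edgeR's quasi-likelihood test with Benjamini-Hochberg adjustment over all genes, 440 of 18228 genes were called in this line, or 2.41% (1.69% higher and 0.724% lower), against 1 of the 35 members tested. A further 7 members had an unadjusted p under 0.05 without passing, namely Kif1c, Kif21a, Kif27, Kif3a, Kif3b, Kifc1 and Kifc3. With Kif26a these are 22.9% of the members, beside 18.6% of all genes tested. The members' median log2 change was -0.13, with 25 below 0 and 10 above, while the median of all genes was -0.01.

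Kif26a encodes an atypical kinesin known to bind microtubules without ATP hydrolysis and to take part in the development of enteric neurons. It was at 1.97, 3.98 and 2.55 CPM in the Padi6 heterozygotes and at 1.19, 1.04 and 1.04 in the Padi6 knockouts. The groups did not overlap, and the mean of the knockouts was 0.385 of that of the heterozygotes. The log2 change was -1.38 ± 0.30 with an adjusted p of 0.046. Kif26a in the Tle6 line lay the other way, at 3.29 and 2.50 CPM in the heterozygotes and 4.25, 4.77, 5.50 and 5.72 in the knockouts. Those groups did not overlap either, but the change of 0.85 ± 0.29 did not pass (adjusted p = 0.17). The Padi6 call was lost without any 1 of the Padi6 knockout replicates 1, 2 and 3 (adjusted p = 0.0866, 0.157 and 0.142) or without heterozygote replicate 2 (0.101) or 3 (0.127), at log2 changes between -1.03 and -1.46, and it held without heterozygote replicate 1. Some granulosa and cumulus markers at low levels lay in the same directions as Kif26a. Amhr2 was at 0.284 to 0.811 CPM in the Padi6 heterozygotes and at most 0.149 in the knockouts, and at 0.0127 and 0.112 in the Tle6 heterozygotes against 0.117 to 1.05 in the knockouts. Inha was at 0.208 to 2.37 CPM in the Padi6 heterozygotes and 0.120 to 0.358 in the knockouts, which overlap, and at 0.143 and 0.279 in the Tle6 heterozygotes against 0.537 to 0.874 in the knockouts. By edgeR's test neither was called in either knockout, and both had an unadjusted p under 0.05 in each. DESeq2 called Amhr2, Inha, Fshr and Has2 with Padi6 and Inha with Tle6. Of these, Has2 lay the other way, higher in the Padi6 knockouts. Over the whole list, the sum was 100.5 to 120 CPM in the Padi6 heterozygotes and 104 to 118 in the knockouts. Of the 11 tested with Padi6 9 had a negative change (median -0.42), beside 50.8% of all genes. Of the 12 tested with Tle6 4 did (median 0.35), beside 45.9%. By edgeR's test 1 was called, Has2, which rose with Padi6 (2.19 ± 0.31, adjusted p = 0.0109). Over all genes that test called 2.41% with Padi6 and 1.62% with Tle6. The part of such cells in the Kif26a result was not tested.

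Kif26b, the relative of Kif26a, was at 2.88, 4.62 and 3.03 CPM in the Padi6 heterozygotes, 2.13, 2.88 and 3.11 in the Padi6 knockouts, 2.76 and 7.60 in the Tle6 heterozygotes and 7.17, 7.43, 9.998 and 4.59 in the Tle6 knockouts. Its groups overlapped in both lines, and its changes of -0.38 ± 0.26 and 0.53 ± 0.45 did not pass. The heterotrimeric kinesin-2 motor carries cargo into cilia and along the cytoplasm, and its subunits Kif3a and Kif3b came closest to the threshold after Kif26a. Kif3a was at 40.1, 46.1 and 43.0 CPM in the Padi6 heterozygotes and 33.0, 30.8 and 29.5 in the knockouts (-0.47 ± 0.11, adjusted p = 0.0552). Kif3b was at 33.5, 40.2 and 33.0 CPM in the Padi6 heterozygotes and 25.4, 25.2 and 24.4 in the knockouts (-0.51 ± 0.12, adjusted p = 0.059). For both subunits every knockout lay below every heterozygote, and all 4 kinesin-2 genes, with Kif3c and Kif17, had negative changes between -0.51 and -0.18. Negative changes were also found for 25 of the 35 members tested and for 50.8% of all genes. By edgeR's test 0 of the 4 kinesin-2 genes passed, 2 (Kif3a and Kif3b) had an unadjusted p under 0.05, and DESeq2 called those 2. Over all genes 2.41% passed edgeR's test with Padi6 and 18.6% had such an unadjusted p. Kifc3, a minus-end motor of the Golgi and of cell junctions, lay the other way at 56.3, 69.5 and 66.5 CPM in the heterozygotes and 79.1, 98.1 and 102 in the knockouts (0.54 ± 0.13, adjusted p = 0.0682).

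Loss of Tle6 changed 2 kinesins past the test, and both fell: Kif21a and Kif18b. In this line 329 of 20276 genes were called, or 1.62% (0.587% higher and 1.04% lower), against 2 of the 34 members tested. Kif17, Kif1b, Kif26a, Kif2a, Kif3b and Kif5b had an unadjusted p under 0.05 without passing, and with the 2 called genes they are 23.5% of the members, beside 19.0% of all genes tested. The members' median was -0.20, with 25 below 0 and 9 above, and that of all genes was 0.06. Of the 10 spindle and chromosome motors tested, 9 had a negative change and 1 passed, while 45.9% of all genes had a negative change. With libraries scaled by total counts alone, the median of all genes moved from 0.06 to 0.22 and neither kinesin passed, at folds close to the main ones (Kif18b -1.48, adjusted p = 0.0585; Kif21a -1.51, 0.0581).

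Kif21a encodes a kinesin that slows microtubule growth near the cell cortex and guides axons of the eye muscles. It was at 8.40 and 5.97 CPM in the Tle6 heterozygotes and at 2.99, 1.82, 2.36 and 1.72 in the knockouts. Every knockout lay below both heterozygotes, and below libraries A and B of replicate 2 taken singly, at 4.62 and 6.71. The change was -1.65 ± 0.32 (adjusted p = 0.0425). It was -1.82 (adjusted p = 0.0355) without library A and -1.46 (0.148) without library B. The call held without Tle6 knockout replicate 1 and was lost without knockout replicate 2, 3 or 4 (0.109, 0.0917 and 0.0926) or without heterozygote replicate 1 or 2 (0.145 and 0.0893), at changes between -1.41 and -1.92. In the Padi6 line Kif21a was at 6.75, 8.62 and 6.01 CPM in the heterozygotes and 10.2, 8.16 and 12.3 in the knockouts, with 1 knockout within the range of the heterozygotes. That change of 0.52 ± 0.21 did not pass (adjusted p = 0.219).

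Kif18b was at 15.2 and 16.5 CPM in the Tle6 heterozygotes and 3.67, 4.93, 3.82 and 7.28 in the knockouts. The change was -1.64 ± 0.31 (adjusted p = 0.0399), and the groups did not overlap. The 16.5 of replicate 2 joined 42.2 CPM in library A (1452 counts) with 2.49 CPM in library B (158 counts), and library B lay below all 4 knockouts. Without library A the change was -0.83 with an adjusted p of 0.412, and without library B it was -2.34 (0.0443). Libraries A and B of heterozygote replicate 1 had 14.9 and 15.7 CPM. The call was also lost without knockout replicate 1, 2 or 3 (0.062, 0.0997 and 0.0917) or heterozygote replicate 1 or 2 (0.106 and 0.152), and it held without knockout replicate 4. In the Padi6 line the gene was at 11.4, 8.70 and 9.05 CPM in the heterozygotes and 10.2, 8.85 and 8.02 in the knockouts, with overlap (-0.11 ± 0.17, adjusted p = 0.784).

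The summed level of theca and stroma markers was, like these 2 genes, lower in the Tle6 knockouts. The 6 markers summed to 4.85 and 5.59 CPM in the Tle6 heterozygotes and to 1.82 to 3.33 in the knockouts, with no overlap, where they summed to 2.81 to 4.45 and 1.07 to 3.17 in the 2 Padi6 groups. Between 4 and 5 of the 6 had a mean under 1 CPM in each group, and Col1a2 and Cyp17a1 had 0 counts in the Tle6 heterozygotes. Pdgfra was at 2.18 and 3.23 CPM in the Tle6 heterozygotes and 0.521 to 0.997 in the knockouts. Dcn was at 1.62 and 1.68 CPM in the Tle6 heterozygotes and 0.187 to 0.813 in the knockouts. Star, the third marker tested, was not lower, at 0.963 and 0.655 CPM in the heterozygotes and 0.838 to 1.54 in the knockouts. By edgeR's test 0 of the 3 tested were called with Tle6, 2 (Dcn and Pdgfra) had an unadjusted p under 0.05, and DESeq2 called Pdgfra. Over all genes edgeR's test called 1.62% with Tle6, and 19% had such an unadjusted p. The part of such cells in the Kif21a and Kif18b results was not tested.

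**Figure D3:**
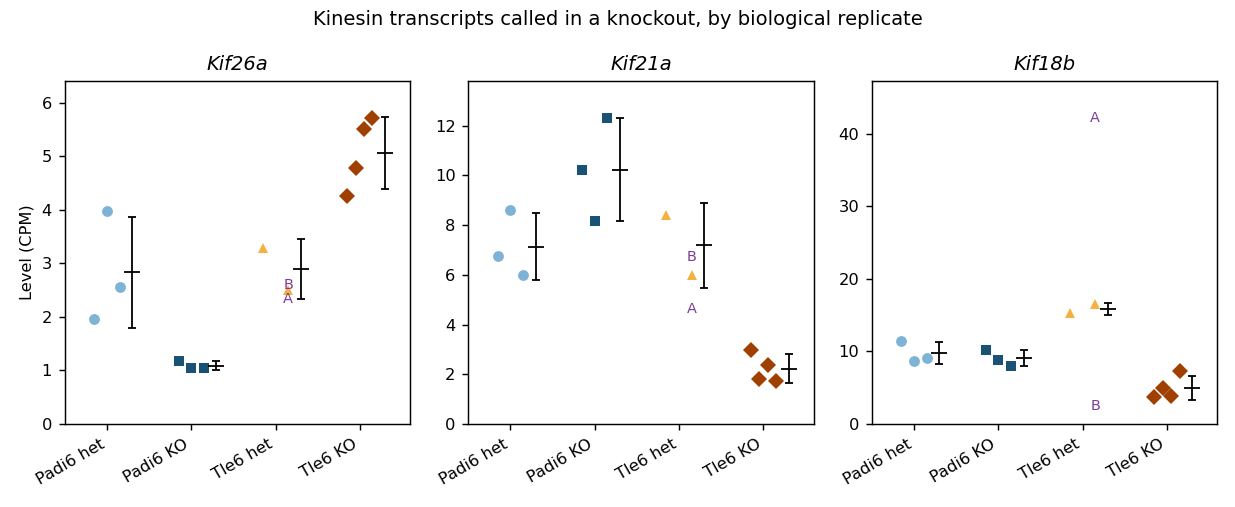
CPM (y axis, from 0) of Kif26a, Kif21a and Kif18b in each biological replicate of the 4 groups (x axis), with the mean and SD as black bars and the letters A and B for the technical libraries of Tle6 heterozygote replicate 2. Kif26a is lowest in the Padi6 knockouts, Kif21a is lowest in the Tle6 knockouts, and for Kif18b library A at 42.2 lies far above library B at 2.49.

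Conventional kinesin is the transport motor whose heavy chains are Kif5a, Kif5b and Kif5c. By edgeR's test 0 of its 2 tested genes were called in either knockout, beside 2.41% of all genes with Padi6 and 1.62% with Tle6. Kif5b, in the Tle6 line, had an unadjusted p under 0.05, and DESeq2 called it. Such a p was reached by 18.6% of all genes with Padi6 and 19% with Tle6. Kif5b was at 35.8, 49.6 and 33.0 CPM in the Padi6 heterozygotes, 37.5, 42.6 and 45.2 in the Padi6 knockouts, 71.2 and 79.9 in the Tle6 heterozygotes and 47.2, 36.7, 48.0 and 40.2 in the Tle6 knockouts. Its Tle6 change of -0.77 ± 0.19 had an adjusted p of 0.0808. In replicate 2, library A had 41.4 CPM, within the range of the knockouts, and library B had 100.9, so the change was -1.08 without library A and -0.29 (adjusted p = 0.736) without library B. Kif5c was at 103, 81.7 and 93.2 CPM, then 87.8, 80.0 and 81.5, then 59.1 and 69.1, then 52.8, 53.0, 61.6 and 45.6, in the same order of groups. Per kb of exon, means over the groups were 10.3 CPM for Kif5c and 6.26 for Kif5b.

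Kif17 differed in level between the lines. It was at 259, 194 and 226 CPM in the Padi6 heterozygotes, 233, 200.1 and 167 in the Padi6 knockouts, 343 and 497 in the Tle6 heterozygotes and 464, 753, 755 and 601 in the Tle6 knockouts. Every sample of the Tle6 line lay above every sample of the Padi6 line. The change in the Tle6 knockout, 0.66 ± 0.26, did not pass (adjusted p = 0.22), and replicate 2 of the heterozygotes joined 911.9 CPM in library A with 271 in library B. Without library A the change was 1.02 (adjusted p = 0.0815) and without library B 0.23 (0.834). Kif3b in the Tle6 line was at 21.2 and 19.1 CPM in the heterozygotes and 14.2, 12.6, 11.6 and 14.4 in the knockouts, at -0.57 ± 0.21 (adjusted p = 0.19). The knockouts lay below both heterozygote replicates, but library B of replicate 2, at 14.1 CPM against 28.3 in library A, lay within their range.

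**Figure D4:**
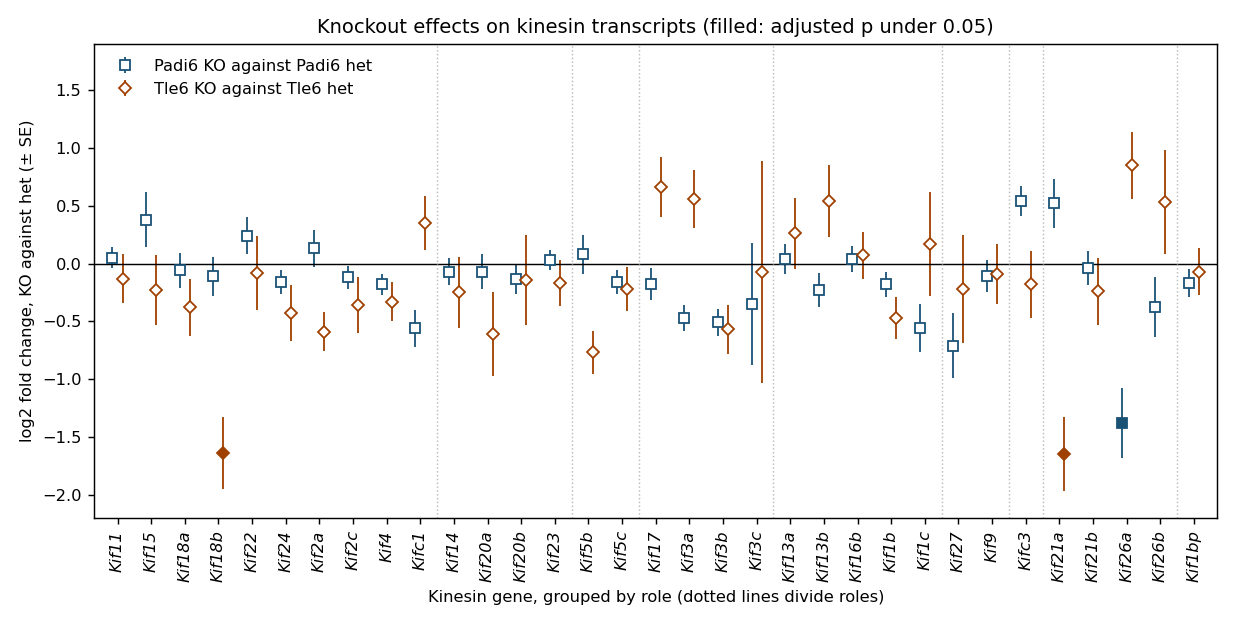
Log2 fold change of knockout against heterozygote (y axis, bars are SE) for the 33 kinesins tested in both lines (x axis, grouped by role), with squares for Padi6, diamonds for Tle6 and filled symbols for an adjusted p under 0.05. The filled symbols are Kif26a in the Padi6 line and Kif18b and Kif21a in the Tle6 line.

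Of the 33 members tested in both lines, 16 had a negative change in both, 2 a positive change in both, 7 were negative with Padi6 and positive with Tle6, and 8 the reverse. By edgeR's test 0 members were called in both and 3 had an unadjusted p under 0.05 in both, and DESeq2 called 0 in both. The same counts over all genes were not made, so whether the members differ from other genes here is not known. The difference between the knockout effects was tested directly in 1 fit of all 12 replicates. It passed for 924 of 21392 genes, or 4.32% (1.31% higher and 3.01% lower), and for 3 of the 37 members tested. In that test 9 members, or 24.3%, had an unadjusted p under 0.05, beside 20.7% of all genes. The 2 lines differ in strain as well as in the deleted gene, so the gene and the strain cannot be told apart.

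The 3 members were the same that changed in 1 knockout each. For Kif26a the Tle6 effect minus the Padi6 effect was 2.18 ± 0.42 (adjusted p = 0.0114), and it was 2.05 without library A of Tle6 heterozygote replicate 2 and 2.32 without library B. Among the 12 fits that each left out 1 replicate, the call was lost only without the whole of that replicate (1.99, adjusted p = 0.0519). Of the 12 granulosa and cumulus markers tested for this difference, edgeR called 2, beside 4.32% of all genes. Inha lay in the direction of Kif26a (4.63 ± 1.05, adjusted p = 0.0274) and Has2 in the other (-2.86 ± 0.58, 0.0159). The part of such cells in the Kif26a difference was not tested. For Kif21a the difference was -2.22 ± 0.38 (adjusted p = 0.00597), and the call held without each of the 12 replicates in turn and without library A or B (-2.39 and -1.99). For Kif18b it was -1.57 ± 0.36 (adjusted p = 0.0275), and it was -0.77 (0.485) without library A and -2.23 (0.0231) without library B. That call was lost in 6 of the 12 cases, namely without Padi6 knockout replicate 1, 2 or 3, Padi6 heterozygote replicate 2 or 3, or Tle6 heterozygote replicate 2 (adjusted p between 0.051 and 0.0769). Next in order were Kif3a (0.99 ± 0.27, adjusted p = 0.0587) and Kif5b (-0.89 ± 0.25, 0.0609), which did not pass. Kif3a in the Tle6 line was at 24.1 and 33.5 CPM in the heterozygotes and 34.7, 54.6, 40.6 and 35.6 in the knockouts.

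In Tle6 heterozygotes 4 members were higher and 5 lower than in Padi6 heterozygotes, or 24.3% of 37, beside 28.5% of all genes (6107 of 21392; 15.9% higher and 12.7% lower). The family's share was near that background. An unadjusted p under 0.05 was reached by 13 members, or 35.1%, beside 40% of all genes. Scaled by total counts alone, the median of all genes moved from -0.03 to -0.34 and 2 members were higher and 11 lower. For each of the 9 the groups did not overlap, with 3 samples against 2, but the same samples gave the calls. Some uncalled members, such as Kif3a, Kif4 and Kif18b, did not overlap either, and the share over all genes was not counted. Library A of Tle6 heterozygote replicate 2 taken singly lay within the range of the Padi6 heterozygotes for Kif5b (41.4 CPM) and Kif5c (91.8 CPM).

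The member with the largest difference between the heterozygotes was Kif13a. Kif13a, which moves endosomal and lysosome-related cargo, was at 17.9, 18.1 and 22.0 CPM in the Padi6 heterozygotes, 18.7, 19.2 and 22.0 in the Padi6 knockouts, 3.88 and 3.04 in the Tle6 heterozygotes and 3.76, 4.54, 4.74 and 3.00 in the Tle6 knockouts. Its difference was -2.49 ± 0.25 (adjusted p = 1.25e-05), with -2.40 without library A and -2.56 without library B. Kif21b, a neuronal relative of Kif21a that limits microtubule growth, was at 45.9, 33.1 and 32.6 CPM, then 41.2, 35.0 and 32.6, then 9.99 and 9.01, then 10.98, 5.75, 6.87 and 7.67, in the same order of groups. The difference between its heterozygotes was -1.97 ± 0.27 (adjusted p = 0.000174), and it passed without library A (-2.13) and without library B (-1.76). Kifc3 was at 14.8 and 27.0 CPM in the Tle6 heterozygotes and 21.9, 16.9, 14.3 and 18.9 in the Tle6 knockouts, all below the lowest sample of the Padi6 line at 56.3. Its difference was -1.62 ± 0.25 (adjusted p = 0.000484), with -1.19 without library A and -2.40 without library B. Kif3b was lower by a smaller step, at -0.82 ± 0.17 (adjusted p = 0.00308). It passed without library A (-0.92) and without library B (-0.68). For Kif5c the difference was -0.53 ± 0.16 (adjusted p = 0.0273), lost without library B (-0.46, 0.0948), Padi6 heterozygote replicate 1 (0.0882) or 3 (0.0661) or Tle6 heterozygote replicate 1 (0.169), and passing without library A (-0.56).

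Kif9, a motor of the axoneme of motile cilia and sperm tails, was the member most raised in the Tle6 line. It was at 12.1, 11.9 and 11.2 CPM in the Padi6 heterozygotes, 9.85, 11.2 and 11.7 in the Padi6 knockouts, 36.2 and 41.7 in the Tle6 heterozygotes and 47.5, 27.6, 28.1 and 38.6 in the Tle6 knockouts. The difference between heterozygotes was 1.73 ± 0.22 (adjusted p = 0.000102), with 2.00 without library A and 1.32 without library B. Kif5b was higher by 0.94 ± 0.19 (adjusted p = 0.00276), with 1.26 without library A and 0.42 (0.313) without library B. For Kif17 the difference was 0.89 ± 0.23 (adjusted p = 0.0108), with 0.54 (0.0721) without library A, 1.28 without library B and 0.60 (0.144) without the whole replicate 2. Kif2a was higher by 0.74 ± 0.18 (adjusted p = 0.00742), with 0.97 without library A and 0.40 (0.235) without library B. The calls of Kif13a, Kif21b, Kifc3, Kif3b and Kif9 held without library A, without library B and without each of the 12 replicates in turn.

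**Figure D5:**
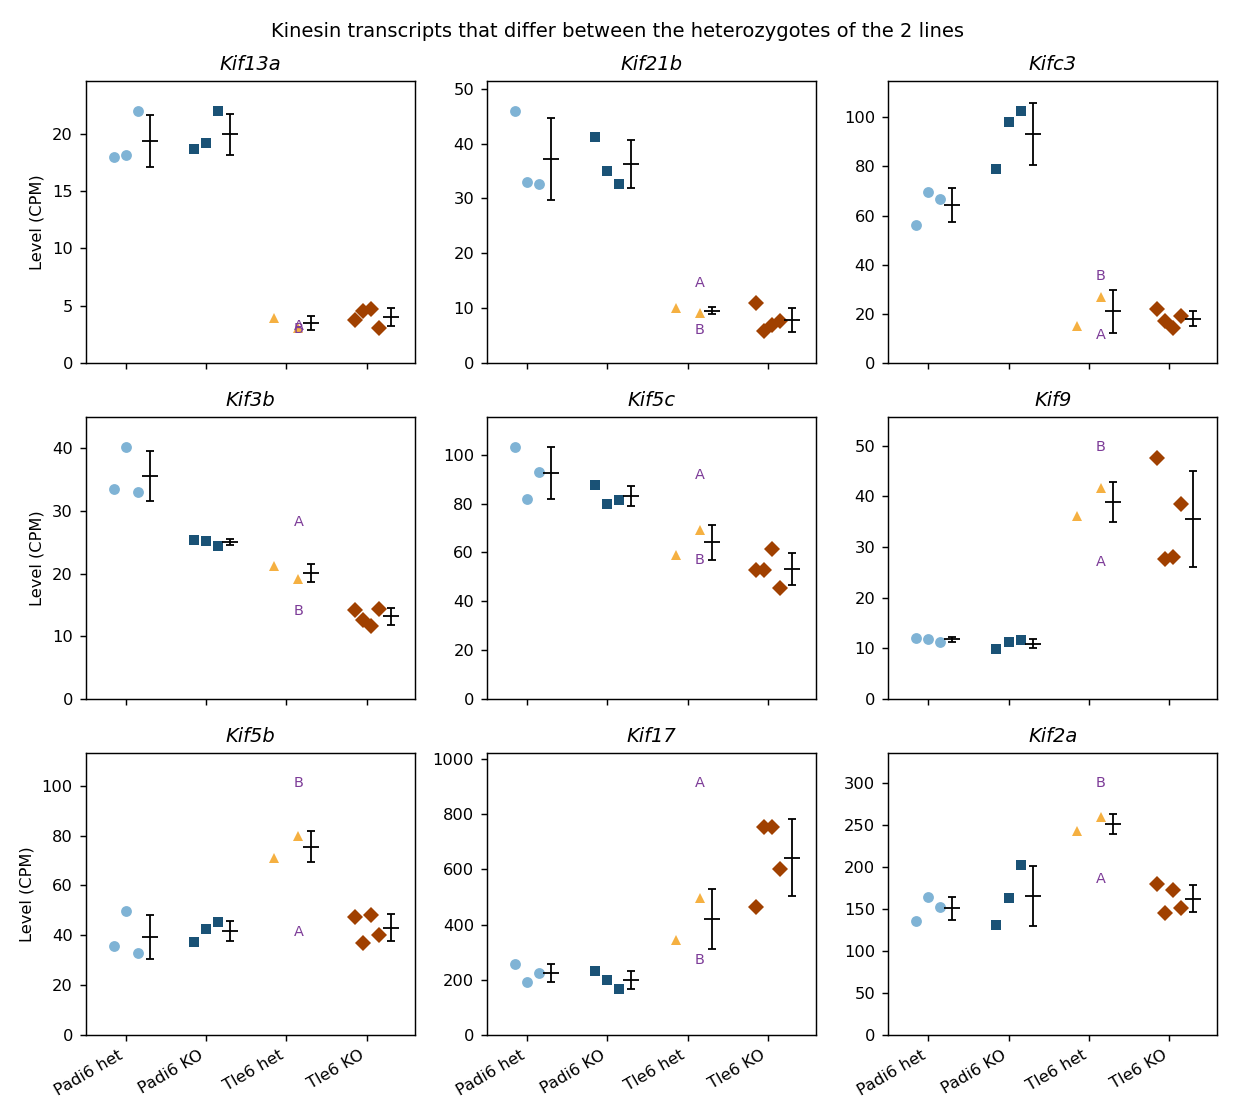
CPM (y axis, from 0) in each biological replicate of the 4 groups (x axis) for the 9 kinesins that differ between Tle6 and Padi6 heterozygotes, with the mean and SD as black bars and A and B for the technical libraries of Tle6 heterozygote replicate 2. For Kif13a, Kif21b, Kifc3, Kif9, Kif17, Kif3b and Kif5c all biological replicates of 1 line lie apart from all those of the other. For Kif3b and Kif5c library A taken singly lies within the range of the Padi6 line.

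A list of 21 genes covered products that work with kinesins, among them light chains, cargo adaptors and spindle regulators. It also held Cenpe and Stard9, motors that the symbol rule left out. Of the 21 genes 18 were tested with Padi6 and 19 with Tle6. By edgeR's test 0 were called in each line, beside 2.41% and 1.62% of all genes. An unadjusted p under 0.05 was reached by 1 and 4 of them, beside 18.6% and 19% of all genes, and DESeq2 called 0 in each. Between the heterozygotes 3 of 20 were higher and 5 lower in the Tle6 line, beside 28.5% of all genes called. Arl8a, a lysosomal small GTPase that recruits kinesins, was higher by 3.45 ± 0.36 (79.0 ± 20.4 CPM, n = 2, against 7.23 ± 2.74, n = 3), and Arl8b was higher by 0.97 ± 0.19. Prc1, which bundles the midzone microtubules that Kif4 binds, was higher by 2.25 ± 0.31, and the light chain Klc2 was lower (-2.03 ± 0.44). Of 27 genes for cytoplasmic dynein, the motor that walks the opposite way, and its partners, 26 were tested in each knockout. With Padi6 edgeR's test called 0 of them (2.41% of all genes), 7 had an unadjusted p under 0.05 (18.6% of all genes), and DESeq2 called 1, Dynlt3. With Tle6 edgeR's test called 1 (1.62% of all genes), the dynactin subunit Dctn4, 8 had an unadjusted p under 0.05 (19% of all genes), and DESeq2 called 4, namely Dctn4, Dync1i1, Hook2 and Nde1. Dctn4 fell from 668 ± 26.6 CPM (n = 2) in the Tle6 heterozygotes to 228 ± 85.0 (n = 4) in the knockouts (-1.51 ± 0.30, adjusted p = 0.0497), and it stood at 204 ± 14.1 in the Padi6 heterozygotes (n = 3). Without library A of Tle6 heterozygote replicate 2 its change was -1.81 (adjusted p = 0.0399) and without library B -1.05 (0.332). The call held without Tle6 knockout replicate 1 and was lost without each of the other 5 replicates of the line (adjusted p between 0.0785 and 0.157).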

How the data were processed

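RNA was measured in 15 libraries of GV oocytes. The deposited files hold whole-number counts per gene, which the authors made with bcl2fastq 2.20.0.422, cutadapt 2.8, STAR 2.7.8a and HTSeq 2.0.2 on build mm39, per the submitters' processing notes. No source used here gives the annotation release or the strand setting. The summary lines of the counter were left out (5.39 to 7.29% of its total without a feature, 3.85 to 4.2% ambiguous, 12.09 to 14.51% not unique), as were 92 spike-ins. Of 53700 Ensembl identifiers 52147 matched a symbol. Technical libraries A and B were added together, which left 12 biological replicates.

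Genes were tested with edgeR 4.0.16 (quasi-likelihood, TMM scaling, filterByExpr, two-sided, Benjamini-Hochberg adjustment over all genes tested, threshold 0.05) within each line, and in 1 fit of 4 groups for the difference between the lines and for the heterozygotes. The script was tested on simulated counts. The common biological coefficient of variation was 0.203 for Padi6 and 0.361 for Tle6. CPM use TMM factors over the 12 replicates. Exon lengths and frames come from GENCODE M21 on GRCm38, so no coordinates are given. Alternatives were RLE and total count scaling, 2 other filters, DESeq2 1.42.0, a shared spread, a replicate block, and leaving out each replicate or library. Sample values were given for members called in any comparison, for the 8 highest per kb and for Kif11, Kif15, Kif18a, Kif2c, Kif4, Kif20a, Kif23, Kifc1 and Kif26b. The members, this rule and the gene lists were chosen with earlier results of these data known. Marker lists covered oocytes, granulosa and cumulus cells, theca and stroma, and blood (summed 0.653 to 2.32 CPM). The pairing of same-numbered replicates was checked from their deviations, and it was not taken as paired.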

Additional observations from a re-analysis of the deposited data

Results flagged for a closer look

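The effect of the knockout differed between the lines, by a test of that difference in the fit of all 12 replicates, for 3 kinesins. For Kif26a the Tle6 effect minus the Padi6 effect was 2.18 on the log2 scale. For Kif21a it was -2.22, and for Kif18b it was -1.57. Kif21a held its call under each left-out library and replicate, Kif26a lost it without Tle6 heterozygote replicate 2, and Kif18b lost it without library A of that replicate (-0.77), in 6 of the 12 fits without 1 replicate (adjusted p between 0.051 and 0.0769) and with total count scaling (0.0561).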

How the results depend on the processing

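Over 274 recomputed values of the 15 called gene results, 231 kept the call, 43 lost it and 0 changed direction, and over 376 values of the 23 results with only an unadjusted p under 0.05, 55 gained a call. Directions changed in 2 such uncalled values: Kifc3 in the difference between the lines (0.03 without library B of Tle6 heterozygote replicate 2) and Kif18b between the heterozygotes (-0.10 without library A). Libraries A and B of that replicate differed for both genes, at 11.3 and 35.5 CPM for Kifc3 and 42.2 and 2.49 CPM for Kif18b. The cause of that difference between the libraries was not tested. With Padi6 (1 kinesin called), DESeq2 called 5, no filter 5, a mean of at least 1 CPM 2, a spread shared by both lines 0, and fits without 1 replicate 0 to 2. Over all genes (440), DESeq2 called 1304, no filter 1625, the shared spread 60, and fits without 1 replicate 61 to 258. With Tle6 (2 called), DESeq2 called 4, the shared spread 6, total count scaling 0, no library A 1, no library B 1, and fits without 1 replicate 0 to 1. Over all genes (329), DESeq2 called 1719, no filter 1447, the shared spread 2061, no library B 120, and fits without 1 replicate 119 to 292. For the difference between the lines (3 called), DESeq2 called 5, no filter 6, no library A 6, and fits without 1 replicate 1 to 5. Over all genes (924), DESeq2 called 2000, no filter 2078, no library B 382, and fits without 1 replicate 405 to 1463. Between the heterozygotes, no library B gave 3724 genes in place of 6107, and fits without 1 replicate gave 8 to 11 kinesins and 3953 to 6283 genes. Higher calls made up 36.2% of all Tle6 calls but 52.3% with total count scaling and 47.5% with DESeq2; for the difference they were 30.3%, 51.6% and, without a filter, 42.7%, and between the heterozygotes 55.5% and 31.4% with total count scaling.

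Same-numbered samples of the Padi6 line correlated at 0.105, 0.0558 and 0.0672, each best with its own number. Its other pairs lay between -0.0771 and 0.0161. Those of the Tle6 line correlated at 0.0505 and 0.104, but heterozygote replicate 1 correlated best with knockout replicate 4 (0.143). With 2 heterozygotes the deviations of 1 mirror those of the other, so these values are not independent. The main tests did not pair samples by number, although the Padi6 values go with such pairing. With the replicate block 4 kinesins were called with Padi6, 0 with Tle6 and 3 in the difference, and 859, 57 and 400 genes. Those 3 were Kif18b, Kif21a and Kif3a, and Kif26a lost its call there (1.97, adjusted p = 0.0752). Genes under about 1 CPM, with few counts, were measured least precisely.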
